A study of Homo sapiens with 3 samples.

Results

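Regulators of G protein signalling (RGS proteins) were examined on 3 Affymetrix arrays of A498, a cell line derived from a human kidney carcinoma. The genes were RGS2, RGS3, RGS4, RGS5, RGS10, RGS12, RGS14, RGS16, RGS19 and RGS20, 10 of the 18239 genes with a probe set of their own. The family was chosen by the low RGS2 values on both treated arrays, so the RGS2 differences from control are given as a description and support nothing. The groups were a culture with E. coli 83972, a culture with 60 µM DRB and a control culture with 0.08% DMSO, each sampled after 4 h in serum-free medium with gentamicin. The bacterium belongs to a strain known from bladders of carriers free of symptoms, and DRB blocks CDK9, a kinase that RNA polymerase II needs for elongation. DMSO is named for the control culture alone, and its part in a difference and that of the addition cannot be told apart. The concentration of the bacterium is given in 2 ways and is not printed here. Each group is 1 array of a culture of 1 cell line, labelled as experiment 2, so every difference compares arrays and has no replicate check and no p-value.

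G protein-coupled receptors act by loading G alpha subunits with GTP, after which the alpha subunit and the beta-gamma dimer signal separately. RGS proteins share a domain that speeds up GTP hydrolysis by the alpha subunit and so shortens the signal. The R4 subfamily (here RGS2, RGS3, RGS4, RGS5 and RGS16) are mostly small proteins, the RZ subfamily (RGS19 and RGS20) carry a cysteine string, and the R12 subfamily (RGS10, RGS12 and RGS14) includes proteins with further domains that bind G alpha or Ras. RGS2 is known as a selective inhibitor of Gq signalling, and its transcript is known to respond quickly to hormones and stress in many cell types.

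Levels are RMA values on a log2 scale, and a difference is the log2 value of 1 array minus that of another. For each gene the probe set of highest mean over the arrays was used, and genes below 4.88 on every array, the median over all probe sets and arrays, were left out. This kept 9 of the 10 RGS genes and 11653 genes in all, with RGS4 left out. Of the 32 probe sets of the 10 genes, 14 reached that level and 18 stayed below it on all arrays. RGS2, RGS10, RGS19 and RGS20 had 1 probe set each, so nothing within the gene checks their values. Markers of tubule and renal carcinoma cells (7 of 7 with a probe set, among them PAX8 and VIM) and the keratins KRT8, KRT18 and KRT19 were kept, while the epithelial genes EPCAM and CDH1 were below the filter level. Of the markers of other cell types, 1 of 5 leukocyte, 2 of 4 endothelial and 2 of 6 fibroblast and pericyte genes were kept, and 0 of these differed by 2-fold between a treated array and control.

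RGS2 had a level of 5.31 on the E. coli 83972 array, 4.42 on the DRB array and 8.30 on the control array. Both treated arrays were thus far below control, and the DRB array was below the filter level. The difference from control was −2.99 with E. coli 83972 (7.93-fold lower) and −3.88 with DRB (14.7-fold lower). Among the kept genes 3 had a difference as low or lower with E. coli 83972, and 4 with DRB, RGS2 included. The E. coli 83972 array was above the DRB array by 0.89, which is under 2-fold. RMA compresses differences of dim probe sets, so a difference with a dim value may be understated. Raising the DRB value to the filter level does not correct for this and can only shrink these differences. It gave a difference from control of −3.41 and one between the treated arrays of 0.43.

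Technical error was gauged in 6317 genes with at least 2 kept probe sets, by setting the brightest against the next. RGS2 lies among the dimmer genes (mean level up to 6.49). There the standard deviation of a difference was 0.23 for E. coli 83972, 0.42 for DRB (each minus control) and 0.44 between the treated arrays. Among these genes the 2 probe sets disagreed by 1 or more on the log2 scale in 1.38% of 2106 genes for E. coli 83972 and in 9.54% for DRB, with largest disagreements of 3.87 and 3.22. Of 28 genes whose brightest probe set was lower by 3 or more with DRB, 23 (82.1%) had a second kept probe set at least 2-fold lower. This share describes genes with 2 kept probe sets and is no check on RGS2, which has 1 and was chosen for its low value. The technical error gauged here holds no variation between cultures, extractions or hybridizations.

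The upstream sequences of RGS2 and RGS16 are shown because both are R4 genes of chromosome 1 with a single start in RefSeq. They also differed in the data, RGS2 being low on both treated arrays and RGS16 close to control on both. The RGS16 value rests on 1 kept probe set of 4. Each run is the 250 bases before the RefSeq start (assembly GRCh38.p14), 5′ to 3′ on the strand of the gene. RGS2 lies at chr1:192808789-192809038 on the plus strand and RGS16 at chr1:182604390-182604639 on the minus strand. Capitals mark, on either strand, the CCAAT box (CCAAT), the core of the GC box (GGGCGG) and a part of the cAMP response element (CGTCA).
RGS2: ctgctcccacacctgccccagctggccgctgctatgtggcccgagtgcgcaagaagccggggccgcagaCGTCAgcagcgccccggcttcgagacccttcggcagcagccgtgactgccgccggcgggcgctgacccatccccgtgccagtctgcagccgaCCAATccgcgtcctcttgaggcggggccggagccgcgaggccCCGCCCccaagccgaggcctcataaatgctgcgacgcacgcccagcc
RGS16: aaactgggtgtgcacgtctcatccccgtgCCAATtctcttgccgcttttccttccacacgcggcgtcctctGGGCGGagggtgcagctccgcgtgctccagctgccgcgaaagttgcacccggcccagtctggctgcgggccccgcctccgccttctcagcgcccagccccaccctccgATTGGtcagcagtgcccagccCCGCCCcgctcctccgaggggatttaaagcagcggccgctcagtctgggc

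The RGS2 run is 72.8% G and C and holds CCAAT once, at 89 to 85 bases before the start, GGGCGG once on the opposite strand, at 47 to 42 bases, and CGTCA once at 181 to 177 bases. The RGS16 run is 68.4% G and C and holds CCAAT and GGGCGG once on each strand and no CGTCA. The full element TGACGTCA and the TATA box TATAAA were also searched and are in neither run (the full element contains CGTCA on each strand). Over 34943 upstream windows of the same length, CCAAT was present in 32%, GGGCGG in 42.5%, CGTCA in 21.2%, TGACGTCA in 1.63% and TATAAA in 10.8%. The motifs that the runs hold are common, and a match is a description only. RefSeq windows were found for 9 of the 10 genes, with 1 start for RGS2, RGS14 and RGS16, 2 for RGS5, RGS10 and RGS19, 4 for RGS4 and 5 for RGS3 and RGS12.

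**Figure D1:**
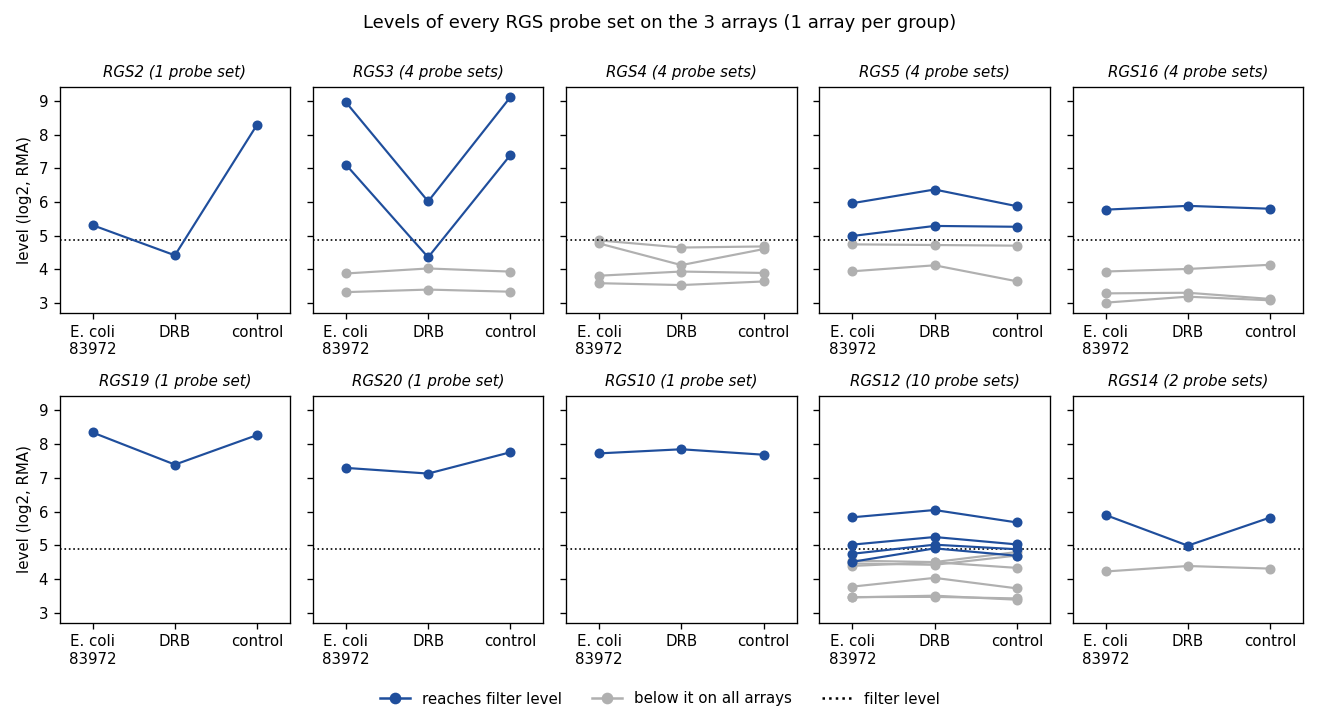
Level of each probe set of the 10 RGS genes (log2 RMA value, vertical axis) on the E. coli 83972, DRB and control arrays. Lines join the values of 1 probe set, blue where it reached the filter level of 4.88 (dotted) and grey where it did not. RGS2 is low on both treated arrays, while the 2 blue RGS3 probe sets dip on the DRB array alone.

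RGS3, which acts on Gq and Gi alpha subunits, differed from control on the DRB array and hardly on the E. coli 83972 array. Its brightest probe set read 8.96 with E. coli 83972, 6.02 with DRB and 9.11 in control. A second probe set read 7.11 with E. coli 83972, 4.36 with DRB and 7.39 in control, so the DRB array was the low one in each. The difference of DRB from control was −3.10 (8.55-fold lower), or −3.07 ± 0.04 (SD over the 2 probe sets), and 30 of 11653 genes were as low or lower. The difference of E. coli 83972 from control was −0.15, or −0.22 ± 0.09 over the same 2 probe sets, close to the technical standard deviation of 0.18 over all levels. The E. coli 83972 array was therefore above the DRB array by 2.94 (7.70-fold). The other 2 RGS3 probe sets were below the filter level on all arrays and differed from control by at most 0.09 in size. The suffix of the brightest probe set, like that of RGS20, marks it as one that may also detect transcripts of other genes.

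The remaining R4 genes showed no difference of that size. RGS16, which acts on Gi and Gq, read 5.77 with E. coli 83972, 5.88 with DRB and 5.80 in control, and its 3 other probe sets were dim. RGS5, known from pericytes and vascular smooth muscle, read 5.96 with E. coli 83972, 6.37 with DRB and 5.87 in control. Its difference with DRB was 0.49 in the brightest probe set and 0.26 ± 0.33 (SD) over 2 kept ones, so the spread between probe sets was larger than the mean. The suffix of the brightest probe set marks it as one that may also detect transcripts of other genes. Of 2 markers of pericytes and vascular smooth muscle, the receptor gene PDGFRB was below the filter level on all arrays. The actin gene ACTA2 was kept, with 7.50 with E. coli 83972, 8.67 with DRB and 8.08 in control, and its part in the RGS5 values was not tested. RGS4, a regulator of Gi and Gq best known from brain and heart, just missed the filter level, with 4.86 on the E. coli 83972 array, 4.65 with DRB and 4.68 in control. The lowest of its 4 differences with DRB was −0.48, between 4.13 on the DRB array and 4.60 in control, both dim.

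Both RZ genes were lower on the DRB array by under 2-fold. RGS19, also known as GAIP and active on Gi, read 8.35 with E. coli 83972, 7.39 with DRB and 8.27 in control. This is a difference of −0.88 with DRB and of 0.08 with E. coli 83972. RGS20, known for its action on Gz, read 7.30 with E. coli 83972, 7.13 with DRB and 7.76 in control, so it lay below control on both treated arrays, by −0.46 and −0.63. RGS17, an RZ gene outside the 10, went opposite ways, with 6.96 with E. coli 83972, 5.01 with DRB and 6.06 in control. Its single probe set differed from control by 0.89 with E. coli 83972 and by −1.06 with DRB (2.08-fold lower), and the treated arrays were 1.95 apart.

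Of the R12 genes, RGS14, which carries Ras-binding and GoLoco domains beside the RGS domain, was the one lower with DRB. It read 5.90 with E. coli 83972, 4.99 with DRB and 5.82 in control, a difference of −0.83 with DRB and of 0.08 with E. coli 83972. Its second probe set, dim on all arrays, differed by 0.08 with DRB. RGS10, a small protein active on Gi, read 7.73 with E. coli 83972, 7.85 with DRB and 7.69 in control, within 0.16 of control. RGS12, a large scaffold with PDZ, phosphotyrosine-binding and Ras-binding domains, read 5.83 with E. coli 83972, 6.05 with DRB and 5.68 in control. Its 4 kept probe sets of 10 differed from control by −0.04 ± 0.15 with E. coli 83972 and by 0.24 ± 0.10 with DRB (SD over probe sets). Some of the 4 were kept through the DRB array alone, so the filter favoured a positive DRB difference. Over all 10 probe sets the DRB differences ran between −0.30 and 0.37, and the negative ones were among those dropped.

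Counted together, 1 of the 9 kept RGS genes was at least 2-fold lower with E. coli 83972, RGS2 itself, and 0 were higher. Over all kept genes 0.652% were at least 2-fold lower and 1.91% at least 2-fold higher. With DRB 2 of 9 were lower, RGS2 and RGS3, and 0 higher, against 10.2% lower and 0.129% higher over all kept genes. Apart from RGS2, for which the family was chosen, this is 1 of 8 genes, near the background share. Between the treated arrays 1 gene, RGS3, was at least 2-fold higher with E. coli 83972 than with DRB and 0 were lower, against 12.3% and 0.386% of all kept genes. The median difference over the 9 genes was 0.04 with E. coli 83972 and −0.63 with DRB, beside −0.03 and 0.05 over all kept genes. Without RGS2 the medians over the other 8 were 0.06 and −0.27. RGS19 and RGS14 lay just short of 2-fold lower with DRB. Centring the arrays on poly-A spike-ins lowers every DRB difference by 0.87. With that centring 5 of the 9 genes (RGS2, RGS3, RGS14, RGS19 and RGS20) were at least 2-fold lower. Over all genes 4044 were then at least 2-fold lower, where the main setting gave 1185. The small positive DRB differences of RGS5, RGS10, RGS12 and RGS16 turned negative.

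**Figure D2:**
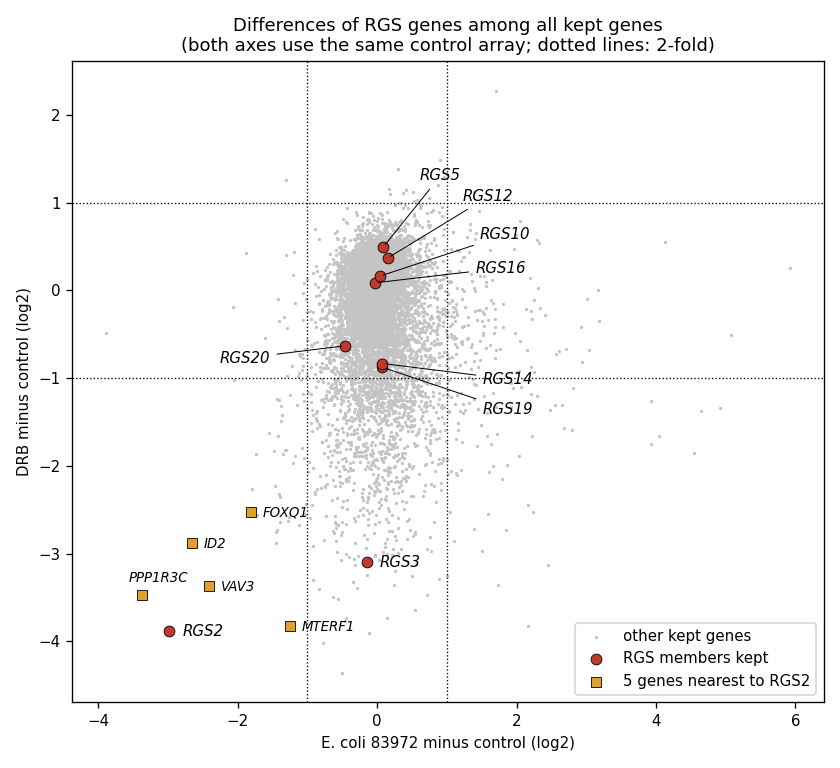
Difference of E. coli 83972 from control (horizontal axis, log2) and of DRB from control (vertical axis, log2) for the 11653 kept genes, with 9 RGS genes in red and the 5 genes nearest to RGS2 as orange squares. Both axes use the same control array, so a high or low control value moves a point along both. RGS2 lies at −2.99 and −3.88, and RGS3 at −0.15 and −3.10.

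The 5 genes with the smallest distance to RGS2 over both differences were PPP1R3C, VAV3, ID2, MTERF1 and FOXQ1. Likeness here is the Euclidean distance between 2 pairs of differences, over 3 arrays with a shared control. PPP1R3C, which directs a protein phosphatase to glycogen, had a distance of 0.57, with levels of 3.99 with E. coli 83972, 3.89 with DRB and 7.37 in control, so it was kept through the control array alone. VAV3 followed at 0.77, with 6.73, 5.76 and 9.13 on the same arrays, though its 3 kept probe sets gave smaller mean differences of −1.77 ± 0.57 with E. coli 83972 and −2.18 ± 1.11 with DRB (SD). ID2, an inhibitor of helix-loop-helix factors, had a distance of 1.06. It read 4.72 with E. coli 83972, 4.50 with DRB and 7.38 in control, so it too was kept through the control array alone. The mitochondrial transcription termination factor gene MTERF1 and the forkhead gene FOXQ1 were farther away, at 1.74 and 1.79. MTERF1 differed from control by −1.25 with E. coli 83972 and by −3.83 with DRB, with the treated arrays 2.58 apart. All but VAV3 had 1 kept probe set, and all but VAV3 were below the filter level on at least 1 treated array. With such levels raised to the filter level, VAV3 was nearest to RGS2 (0.58), followed by ID2 (1.04), PPP1R3C (1.06) and FOXQ1 (1.53), while RANBP6 (1.63) took the place of MTERF1 (1.88), so the order depends on values under that level.

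Position and gene length did not enter the choice of genes and are given as a description. RGS2 is the last of a run of 5 RGS genes on chromosome 1 in RefSeq, after RGS18, RGS21, RGS1 and RGS13, and it was the only one of the 5 whose probe sets reached the filter level. RGS2 is the shortest of the 10 genes, with 3.24 kb, and RGS16 with 5.77 kb is the next, with a difference of 0.09 with DRB. At the other end RGS3 (153 kb), RGS12 (154 kb) and RGS5 (179 kb) are of similar length and differed by −3.10, 0.37 and 0.49 with DRB. RGS19 (6.78 kb), RGS14 (14.7 kb) and RGS20 (108 kb), which lay between −0.63 and −0.88 with DRB, are of intermediate length. So is RGS10 (42.9 kb), which differed by 0.16 with DRB.

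**Figure D3:**
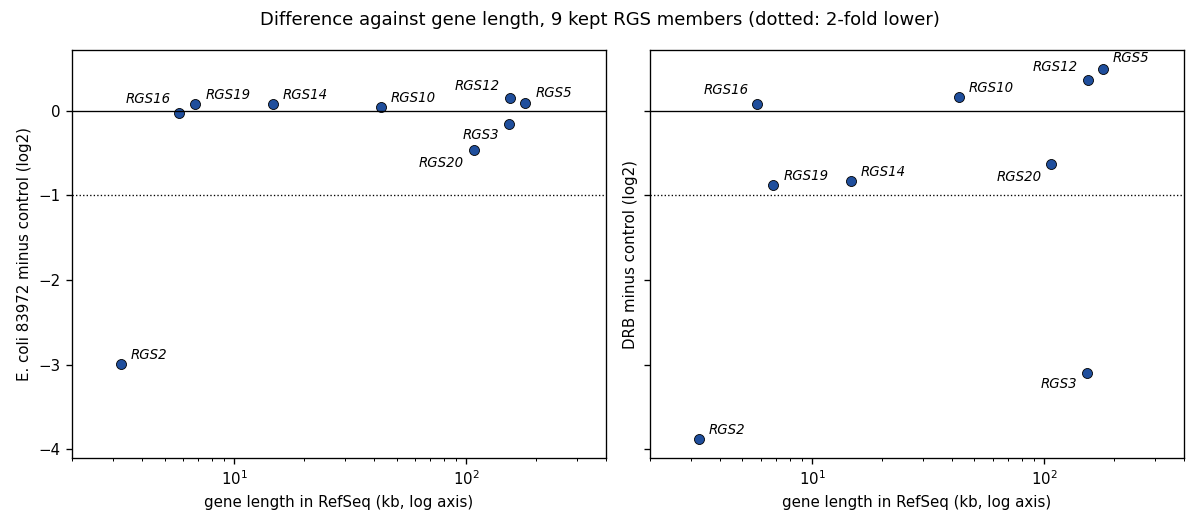
Difference from control (vertical axis, log2) against gene length in RefSeq (horizontal axis, kb, log scale) for the 9 kept RGS genes, for E. coli 83972 on the left and DRB on the right. Each point is the brightest probe set of a gene, and the dotted line is 2-fold lower. The 2 genes that are lowest with DRB are among the shortest (RGS2, 3.24 kb) and the longest (RGS3, 153 kb).

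Of 72 kept genes for G protein subunits, desensitization, exchange factors, effectors, second messengers and receptors, 1 was at least 2-fold higher and 1 lower with E. coli 83972, beside 1.91% and 0.652% of all kept genes. With DRB 1 was higher and 5 lower, beside 0.129% and 10.2%, and 7 were higher with E. coli 83972 than with DRB and 0 lower, beside 12.3% and 0.386%. The medians of 0.08 with E. coli 83972 and 0.12 with DRB stood beside −0.03 and 0.05 over all kept genes. Among 10 kept G alpha subunit genes the exception was GNA13. It read 10.51 with E. coli 83972, 8.62 with DRB and 9.82 in control, a difference of −1.20 with DRB. Its 2 other kept probe sets differed by −0.87 and −0.47 with DRB, and by 1.27 and 0.92 with E. coli 83972, where the brightest gave 0.69, so on which side of 2-fold the gene falls depends on the probe set. The dimmest read 5.54 with E. coli 83972, 4.15 with DRB and 4.62 in control. It was kept through the E. coli 83972 array alone, so its 0.92 is no check, and its −0.47 lies between values under the filter level. GNAQ, the alpha subunit on which RGS2 is known to act, differed by −0.30 with E. coli 83972 and by −0.02 with DRB.

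The 11 kept genes for G beta and gamma subunits held 0 genes at least 2-fold different in either comparison, a count near the shares over all kept genes. They ranged between −0.05 and 0.65 with DRB, with a median of 0.19, and GNB5, whose product pairs with R7 proteins, was the highest. GNG5, the brightest of them, differed by −0.20 with E. coli 83972 and by 0.04 with DRB. The 9 kept genes for adenylyl cyclases and phospholipases C beta, the effectors of Gs, Gi and Gq, likewise held 0, with a range of 0.17 to 0.66 and a median of 0.33 with DRB. ADCY3, the brightest, differed by 0.03 with E. coli 83972 and by 0.46 with DRB. Centred on poly-A spike-ins the medians of the 2 lists were −0.68 and −0.54, since that centring lowers every DRB difference alike, and on hybridization spike-ins −0.04 and 0.10. Downstream, CREB1, a factor that binds the cAMP response element, read 8.59 with E. coli 83972, 6.60 with DRB and 8.07 in control, and was 2.78-fold lower with DRB (−1.48). Its 6 kept probe sets were all lower with DRB, by amounts that ran between −0.42 and −2.76. ITPR2, a calcium channel opened by inositol trisphosphate, was 2.16-fold higher with DRB (1.11), with 7.01 for E. coli 83972, 7.75 for DRB and 6.64 for control. Its second kept probe set gave 0.88 but was kept through the DRB array alone (4.89), so it is no check. Poly-A centring lowers the ITPR2 difference by 0.87, like every other. The suffixes of the brightest CREB1 and ITPR2 probe sets mark them as ones that may also detect transcripts of other genes. CREB1 and ITPR2 were both among 19 kept genes of cAMP and calcium signalling with a median of 0.11.

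Among other regulators of G alpha subunits, the receptor kinases GRK2, GRK3, GRK5 and GRK6 stayed within 0.37 of control on both treated arrays. GPSM2, a GoLoco protein of the spindle, read 7.01 with E. coli 83972, 6.96 with DRB and 7.83 in control, below control on both but by under 2-fold (−0.82 and −0.87). The gene has 1 probe set. RIC8A, a chaperone and exchange factor of G alpha subunits, differed by −0.02 and −0.17. Of 8 kept genes with an RGS-like domain in another setting, 1 was at least 2-fold lower with DRB, near the 10.2% of all kept genes. It was AKAP10, a scaffold of protein kinase A, with 8.50 with E. coli 83972, 7.24 with DRB and 8.31 in control (−1.07 with DRB). The AKAP10 difference rests on the only kept probe set of 4, whose suffix marks it as one that may also detect transcripts of other genes. Of the 11 RGS genes outside the 10, RGS6 and RGS17 were kept, and RGS6 differed by −0.13 and 0.13.

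**Figure D4:**
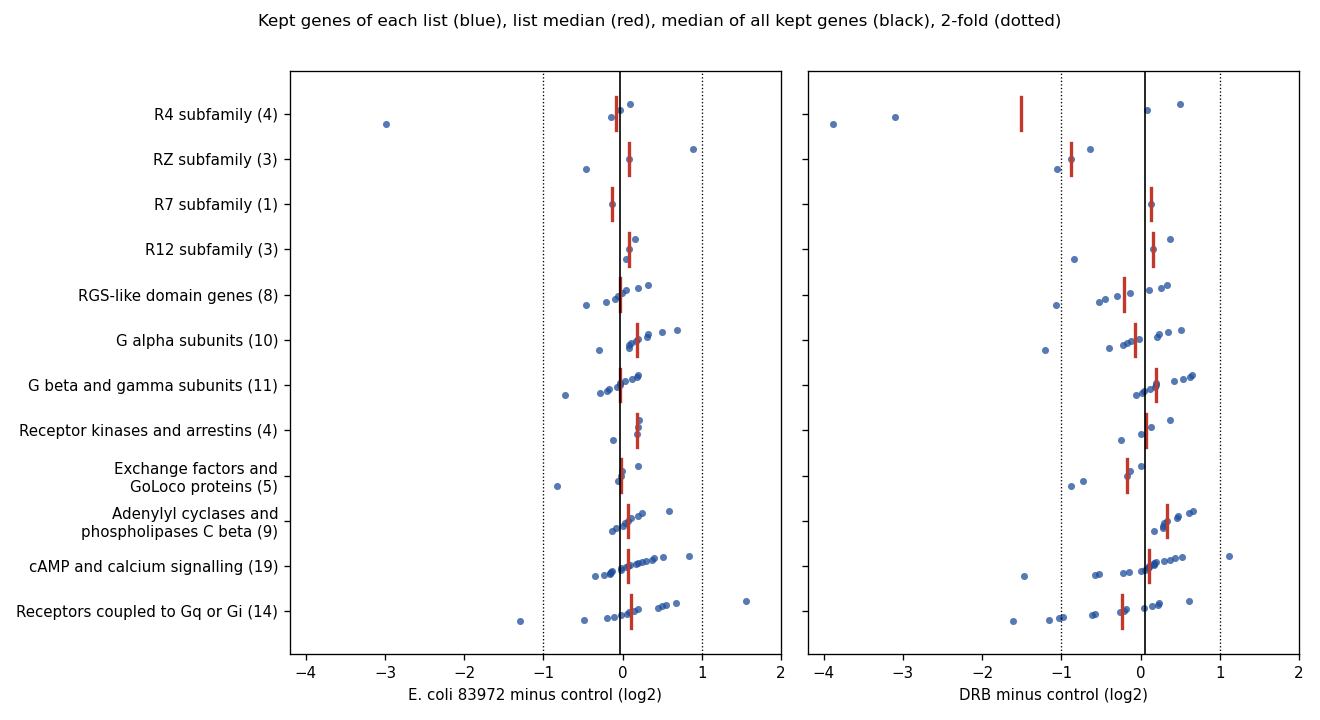
Differences from control (horizontal axes, log2) of the kept genes of 12 lists, for E. coli 83972 on the left and DRB on the right, with the number of kept genes in brackets. Blue points are genes, red bars list medians, the black line the median of all kept genes and dotted lines 2-fold. RGS2 and RGS3 are the 2 lowest points of the R4 row with DRB, and RGS2 the lowest with E. coli 83972.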

How the data were processed

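Messenger RNA was measured on 3 arrays, 1 per group, so precision is limited by the count of arrays. The values are the log2 probe-set values the authors deposited, made with RMA and Partek per the submitters' processing notes; the sources used here give no versions. RMA brings arrays to nearly one distribution, so a change shared by most transcripts is reduced. The array medians were 4.90 (E. coli 83972), 4.88 (DRB) and 4.87 (control). Of 49386 probe sets, 45259 had 1 gene symbol in the platform annotation, of which 45178 were updated through RefSeq (GRCh38.p14). Differences, counts past 2-fold and medians were computed with Python 3.11.15 and pandas 2.3.3, tested on simulated data. The members and the 12 lists were chosen with earlier results of these data known. Named were all RGS members, list genes past 2-fold against control (otherwise the brightest of the list), and the 5 genes nearest to RGS2 by difference; a distance by level was planned and left out, since levels of different probe sets are not comparable. GNAQ, GNB5, GPSM2, GRK2, GRK3, GRK5, LPAR1 and RANBP6 lie outside this rule and were chosen after their values were seen. Each result was recomputed under 8 other settings of centring, probe-set choice, filter and threshold, and with values under the filter level raised to it, chosen after seeing the data.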

Additional observations from a re-analysis of the deposited data

How the results depend on the processing

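With 1 array per group, an alternative was read as moving a difference when it shifted it by more than the technical standard deviation (0.18, 0.32 and 0.35 for E. coli 83972 against control, DRB against control and between the treated arrays). RGS2 and RGS3 kept the sign of every difference under each alternative that gave one. Centred on poly-A spike-ins, which by construction shifts all genes alike, RGS2 was −4.76 with DRB and 1.77 between the treated arrays, RGS3 −3.97 and 3.82, and 5 genes were lower with DRB and 5 higher with E. coli 83972 than with DRB. Centred on hybridization spike-ins, RGS2 was −3.32 and RGS3 −0.49 with E. coli 83972, and 4 RGS genes were lower with DRB, beside 1642 over all genes. With loess correction 4 RGS genes were higher with E. coli 83972 than with DRB, beside 1662 over all genes. At 1.5-fold 5 were lower with DRB and 4 higher between the treated arrays. With values under the filter level raised to it, an alternative chosen after seeing the data, RGS2 was −3.41 with DRB and 0.43 between the treated arrays. Plain-suffix probe sets hold neither RGS2 nor RGS3, so 0 genes were past 2-fold in any comparison. The mean over kept probe sets, array-median centring and no filter moved none of these RGS2, RGS3 and count values. Of 24 differences of the other members, 16 moved under poly-A and 8 under hybridization centring, and of 36 list medians 24 and 12. Plain-suffix probe sets moved 9 list medians and no filter moved 3. Both moved the R4 median with DRB, from −1.51 to 0.09 with plain-suffix probe sets and to 0.06 with no filter. Among the other members the mean over kept probe sets moved 1 difference and plain-suffix probe sets 2. Over all genes, counts higher and lower were 222 and 76 with E. coli 83972, 15 and 1185 with DRB, and 1432 and 45 between the treated arrays. Plain-suffix probe sets gave 82 and 22, 7 and 403, and 499 and 17, and 1.5-fold gave 605 and 357, 237 and 2106, and 2254 and 667. Poly-A centring gave 1 and 4044 with DRB and 4028 and 4 between the treated arrays. Hybridization centring gave 129 and 247 with E. coli 83972, 5 and 1642 with DRB, and 1278 and 89 between the treated arrays. Loess gave 1662 and 22 between the treated arrays.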

Other observations

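A list of receptors, most of them coupled to Gq or Gi, had 14 kept genes. With E. coli 83972, 1 was at least 2-fold higher and 1 lower, beside 1.91% and 0.652% of all kept genes. With DRB 0 were higher and 3 lower, beside 0.129% and 10.2%. Between the treated arrays 5 were higher with E. coli 83972 than with DRB and 0 lower, beside 12.3% and 0.386%: ACKR3, CXCR4, HRH1, ADORA2B and LPAR1. The medians were 0.11 with E. coli 83972 and −0.23 with DRB, beside −0.03 and 0.05 over all kept genes. The 1 higher gene, ACKR3, is an atypical receptor that scavenges CXCL12 and is not known to signal through Gq or Gi. It read 10.59 with E. coli 83972, 9.08 with DRB and 9.03 in control, and its 4 probe sets all lay between 1.53 and 1.64 above control with E. coli 83972. CXCR4, the signalling receptor of the same chemokine, read 11.21 with E. coli 83972, 9.16 with DRB and 10.76 in control, a difference of −1.61 with DRB and of 0.44 with E. coli 83972. Its 4 probe sets gave −1.61 to −1.67 with DRB and 0.44 to 0.78 with E. coli 83972. The suffixes of the brightest ACKR3 and CXCR4 probe sets mark them as ones that may also detect transcripts of other genes.

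The histamine receptor gene HRH1 was lower with DRB (−1.15, and −0.71 to −1.23 over its 4 probe sets), and so was the adenosine receptor gene ADORA2B (−1.03), which has 1 probe set. The suffix of the brightest HRH1 probe set marks it as one that may also detect transcripts of other genes. ADORA1, a Gi-coupled adenosine receptor, read 6.09 with E. coli 83972, 6.41 with DRB and 7.39 in control, below control on both treated arrays (−1.30 and −0.98). Its second kept probe set differed by −0.23 and 0.08, so the difference rests on 1 probe set.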
